A study of Mus musculus with 10 samples.

Results

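The heat shock proteins and their co-chaperones were followed in whole testes of mice at postnatal day 10 that lack FXRα, the farnesoid X receptor, a bile acid-activated nuclear receptor encoded by Nr1h4. Members were the protein-coding genes of the deposited table whose names begin with a heat shock protein (Hsp), J protein (Dnaja, Dnajb or Dnajc), CCT chaperonin (Cct) or BAG (Bag) stem, which gave 89 of 30719 genes. Another 9 rows with such names were pseudogenes, all with mean levels of at most 0.124 CPM (counts scaled to library size) in both genotypes, and were not members. RNA was sequenced from 5 FXR-/- and 5 wild-type mice, 1 library per mouse. All mice had a background of 50% 129sv and 50% C57Bl, where the number after C57Bl runs on from sample to sample and was not read as a substrain, and no treatment is named. Which exons the mutation removes is not given in the sources used here. No promoter or Cre driver is named that would tie the mutation to 1 cell type of the testis.

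Heat shock proteins are molecular chaperones that hold, fold or refold other proteins. HSP70 proteins bind short unfolded stretches in a cycle driven by ATP, J proteins bring them their substrates and start ATP hydrolysis, and HSP110, BAG and related factors release the nucleotide again. HSP90 acts late, on kinases and on steroid receptors, small heat shock proteins hold unfolded proteins without ATP, and the CCT ring folds actin and tubulin in its cavity. Some members are induced by heat through heat shock factor 1, whereas Hspa2 and Hspa1l are HSP70 genes of the male germ line. Hspa2 is made from meiotic prophase onwards and is required for spermatocytes to complete meiosis in the mouse, and Hspa1l is expressed mainly in spermatids.

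The promoters of members at the centre of the comparison between inducible and germ-cell genes are shown with their matches to the heat shock element, the binding motif of heat shock factors. The sequences are from RefSeq (GRCm38.p6), run 5′ to 3′ on the gene's own strand and cover 250 bases before to 50 bases after the annotated start. Capitals mark each match to GAANNTTC or TTCNNGAA, patterns that read the same on both strands. Hspa1a and Hspb1 are stress-inducible members and Hspa1l and Hspa2 the germ-cell members.
Hspa1a, chr17:34972107-34972406, minus strand: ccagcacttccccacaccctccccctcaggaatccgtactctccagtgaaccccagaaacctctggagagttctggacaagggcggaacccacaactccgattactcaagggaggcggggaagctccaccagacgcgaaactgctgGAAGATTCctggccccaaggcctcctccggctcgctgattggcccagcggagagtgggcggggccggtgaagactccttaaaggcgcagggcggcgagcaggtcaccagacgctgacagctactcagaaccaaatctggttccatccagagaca
Hspb1, chr5:135887669-135887968, plus strand: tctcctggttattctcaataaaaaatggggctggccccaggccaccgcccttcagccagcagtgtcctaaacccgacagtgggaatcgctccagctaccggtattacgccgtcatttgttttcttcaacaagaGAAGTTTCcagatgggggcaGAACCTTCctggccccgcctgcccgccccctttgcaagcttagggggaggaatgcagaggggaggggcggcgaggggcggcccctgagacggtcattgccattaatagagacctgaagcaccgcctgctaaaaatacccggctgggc
Hspa1l, chr17:34972453-34972752, plus strand: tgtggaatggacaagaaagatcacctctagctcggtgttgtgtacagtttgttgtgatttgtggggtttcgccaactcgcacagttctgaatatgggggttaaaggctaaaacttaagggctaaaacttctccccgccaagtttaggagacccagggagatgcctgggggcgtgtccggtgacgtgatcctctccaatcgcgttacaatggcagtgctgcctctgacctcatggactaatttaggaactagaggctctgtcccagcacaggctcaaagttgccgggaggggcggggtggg
Hspa2, chr12:76404120-76404419, plus strand: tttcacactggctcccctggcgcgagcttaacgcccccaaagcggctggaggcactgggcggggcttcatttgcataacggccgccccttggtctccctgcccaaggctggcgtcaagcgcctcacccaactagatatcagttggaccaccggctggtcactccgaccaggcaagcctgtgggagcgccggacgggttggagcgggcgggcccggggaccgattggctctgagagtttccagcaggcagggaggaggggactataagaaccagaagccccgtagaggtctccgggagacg

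The Hspa1a window held 1 match, beginning 104 bases before the start. The Hspb1 window held 2, beginning 117 and 97 bases before it. The windows of Hspa1l and Hspa2 held none, which says only that these letters are not in these windows. The RefSeq start used for Hspa2 (76404370) lies downstream of the gene start in the position given for it below. Much of the Hspa2 window thus falls inside the gene by that other annotation. Of the 9 inducible genes with a window, 8 held a match in at least 1 window, and Dnajb1 held none in either of its windows. The promoter of Hspa1b, the second inducible HSP70 gene, was identical to that of Hspa1a at 296 of 300 positions and held its match at the same place. Promoters were at hand for 73 member genes (93 windows), of which 23 windows (24.7%) held a match, and among all 32851 windows of this length 15.1% did. Hspa1a and Hspa1l lie head to head, with annotated starts 547 bases apart on opposite strands.

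The libraries held 32330029 to 39655170 counts. Nr1h4 itself had 8 to 13 counts in FXR-/- and 13 to 26 in wild-type libraries (log2 fold change -0.84, SE 0.234, edgeR adjusted p = 0.0347), so transcripts of the locus were still counted. Markers of germ cells, Sertoli cells and Leydig cells were present in every library, and several cell type lists moved with genotype. Of all tested genes 13.9% passed an edgeR adjusted p under 0.05. Of 12 Sertoli cell markers 8 fell, and the 12 summed to 2914 to 4116 CPM in FXR-/- and 4274 to 5284 CPM in wild type. Of 8 duct epithelium markers 7 rose (summed 114 to 168 CPM in FXR-/- and 67.7 to 86.2 CPM in wild type). Of 9 adipocyte markers 8 rose (summed 199 to 1234 CPM in FXR-/- and 47.9 to 192 CPM in wild type), with the highest mean levels in FXR-/- libraries 9 and 10. DESeq2 called 8 of these 9 and limma-voom 3, and 2 had no overlap between genotypes. Of 8 pan-germ cell markers 2 rose (summed 1359 to 1690 CPM in FXR-/- and 989 to 1407 CPM in wild type). All 8 had a fitted change above 0, 6 had an unadjusted p under 0.05 by edgeR and DESeq2 called 5. The share of all tested genes at an unadjusted p under 0.05 was not counted. None of 20 meiotic prophase markers passed by edgeR or DESeq2 (2 at an unadjusted p under 0.05 by edgeR). Still, 18 of these 20 had a fitted change above 0 (median 0.25), as had 53.3% of all tested genes. In whole-organ RNA, fewer cells of a type and less RNA per cell cannot be told apart. Whether these shifts in cell types carry the changes below was not tested.

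FXR-/- testes differed from wild type by small changes in a minority of the chaperone genes, in both directions. Of 85 members with enough counts to test, 4 were higher and 8 lower in FXR-/- testes by edgeR's quasi-likelihood test at an adjusted p under 0.05, and 73 did not pass. The 12 called members are 14.1% of those tested, against 13.9% of all 18559 tested genes (6.17% higher and 7.71% lower), so the share was close to the background. In 12 members the ranges of the genotypes were fully separate, as in 11.6% of all tested genes. The median log2 fold change (FXR-/- over wild type) was 0.01 over the members and 0.01 over all tested genes, and the largest change at the lower end was -0.54 and at the upper end 0.49. The largest called changes were those of Hspa1a, Hspb2 and Hspb1, and those of the other 9 called members were 0.16 to 0.25 in size. With library totals in place of trimmed-mean (TMM) scaling, 7 members were higher and 5 lower, and 9 of the 12 were called again, the exceptions being Bag2, Dnajc14 and Hspb1. Over all called genes the share that was higher moved likewise, from 44.5% with TMM scaling to 61.5% with library totals. Without FXR-/- library 9, 11 or 12 the members called numbered 7, 5 and 4, and without wild-type library 4 or 5 they numbered 5 and 7, in fits that called 7.64% to 10.8% of all genes. Only Hspa1a, Hsp90ab1, Dnajb2 and Cct5 kept their call under all 18 alternatives, each single library left out among them.

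**Figure D1:**
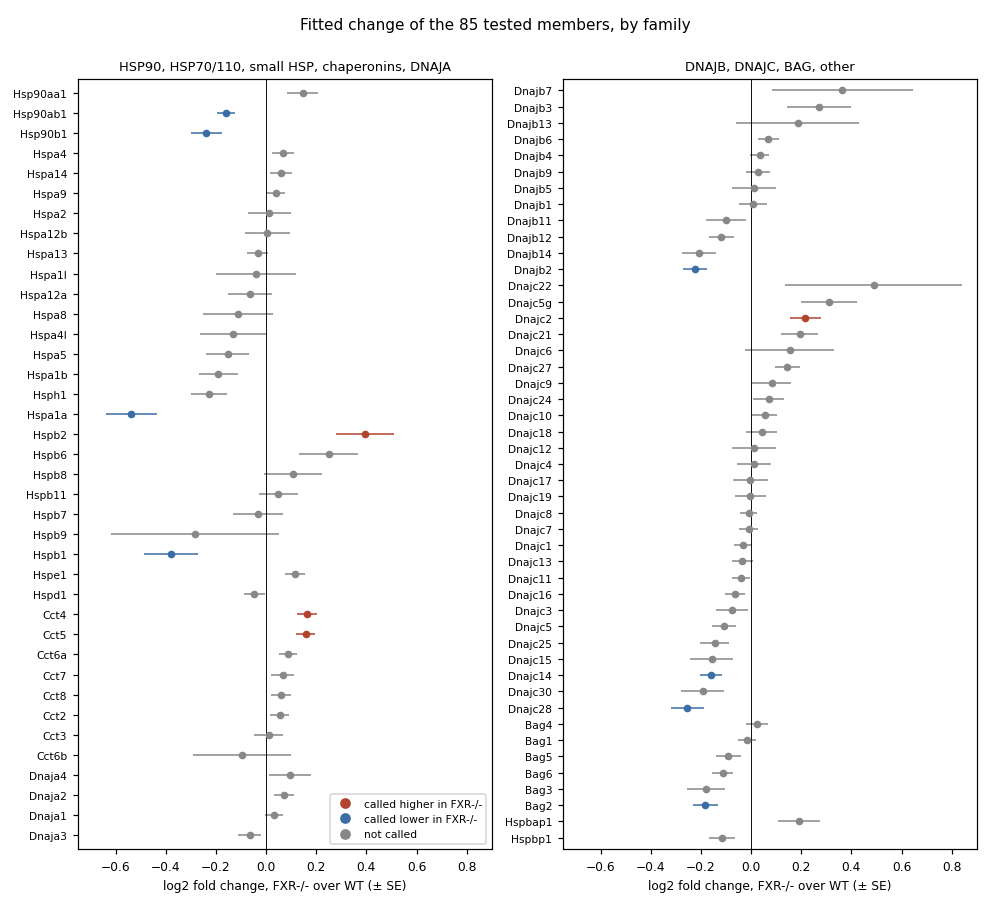
Fitted log2 fold change of each of the 85 tested members (x axis, FXR-/- over wild type, points, with bars of 1 SE) grouped by family down the page. Most points lie near 0, with 8 members called lower (Hspa1a farthest, at -0.54) and 4 called higher (Hspb2 farthest, at 0.39), and the wide bars of Dnajc22 and Hspb9 belong to genes under 1 CPM.

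Among the stress-inducible members, Hspa1a and Hspb1 were lower in FXR-/- testes, and 8 of the 10 did not pass. By edgeR 7 of the 10 had an unadjusted p under 0.05. They were Hspa1a, Hspb1, Hsph1, Hspa1b and Bag3 (fitted change below 0) and Hspe1 and Hsp90aa1 (above 0). Of all 85 tested members 29 had such a p. The share over all tested genes was not counted, so these 7 are not read as a result about the inducible genes. Hspa1a (ENSMUSG00000091971, GRCm38 chromosome 17, 34969190 to 34972156, minus strand) encodes the heat-inducible HSP70. Gm20481 on the opposite strand covers 19.0% of its exon bases, so its reads are uncertain in part. Hspa1a stood at 8.19, 8.05, 7.21, 6.04 and 6.78 CPM in FXR-/- libraries 8 to 12, against 11.0, 12.1, 9.68, 9.54 and 10.2 CPM in wild-type libraries 3, 4, 5, 6 and 9. All 5 FXR-/- values lay below all 5 wild-type values. The mean was 7.25 ± 0.896 CPM in FXR-/- and 10.5 ± 1.07 CPM in wild type (SD, n = 5 each), a 1.45-fold fall (log2 fold change -0.54, SE 0.102, edgeR adjusted p = 0.00649).

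Hspa1b (ENSMUSG00000090877, chromosome 17, 34956436 to 34959238, minus strand), which encodes a nearly identical HSP70, had 9.99, 11.0, 12.1, 11.6 and 11.0 CPM in the FXR-/- libraries and 14.4, 13.3, 11.7, 12.2 and 12.1 CPM in the wild-type ones. These ranges overlapped, and the difference did not pass (log2 fold change -0.19, SE 0.0781, edgeR adjusted p = 0.125). The coding sequences of the 2 genes were identical at 1918 of 1926 aligned bases (99.6%), so reads may be shared and the level of each is uncertain. Their summed counts gave 18.4 ± 0.748 CPM in FXR-/- and 23.2 ± 2.01 CPM in wild type (SD, n = 5 each), again without overlap and 1.26-fold lower (log2 fold change -0.34, SE 0.0657, edgeR adjusted p = 0.00722), a sum added after the files were seen.

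Hspb1 (ENSMUSG00000004951, chromosome 5, 135887919 to 135889563, plus strand), the small heat shock protein HSP25 that protects actin filaments, fell as well. Its 5 FXR-/- values were 25.7, 24.0, 26.6, 25.4 and 23.5 CPM, against 41.2, 36.5, 27.9, 30.3 and 26.8 CPM in wild type. The FXR-/- values lay close together just below the lowest wild-type value, and wild-type libraries 3 and 4 stood highest. Its log2 fold change was -0.38 (SE 0.109, edgeR adjusted p = 0.0387), and the call was lost without FXR-/- library 8, 9, 11 or 12 or wild-type library 3, 4 or 6 (edgeR adjusted p 0.0521 to 0.0944). Without wild-type library 3, which also had the lowest meiotic marker level, it was -0.28 (edgeR adjusted p = 0.0575).

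Of the 10 inducible members, these 2 fell, none rose and 8 did not pass, with a median log2 fold change of -0.11. Of all tested genes 7.71% fell and 6.17% rose. DESeq2 called 4 of the 10, adding Hsph1 as lower (log2 fold change -0.23) and Hspe1 as higher (0.11), and 18.8% of all genes it tested. Hsph1, the HSP110 nucleotide exchange factor, had 92.3, 93.2, 85.8, 82.0 and 90.3 CPM in FXR-/- and 91.6, 106, 116, 114 and 91.9 CPM in wild type. FXR-/- libraries lay with the lowest 2 wild-type libraries, and the difference just missed the threshold (log2 fold change -0.23, SE 0.0729, edgeR adjusted p = 0.0571). It passed without wild-type library 3 or 9 (edgeR adjusted p = 0.0288 and 0.0363).

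Among the other inducible genes, the means of the J proteins lay close together. Dnajb1, the main inducible J protein, averaged 63.3 ± 4.03 CPM in FXR-/- and 63.0 ± 3.80 CPM in wild type (SD, n = 5 each). Dnaja1, a farnesylated J protein, averaged 175 ± 5.19 and 171 ± 4.15 CPM in the same order. These means differed by less than the spread between mice in either genotype. Hsp90aa1, the inducible cytosolic HSP90, had 574 ± 34.3 CPM in FXR-/- and 518 ± 43.0 CPM in wild type (SD, n = 5 each; edgeR adjusted p = 0.132). Bag3, the co-chaperone of selective autophagy, had 17.0 ± 1.89 CPM in FXR-/- and 19.2 ± 0.548 CPM in wild type (SD, n = 5 each; edgeR adjusted p = 0.131). Values of these 4 genes overlapped between genotypes.

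**Figure D2:**
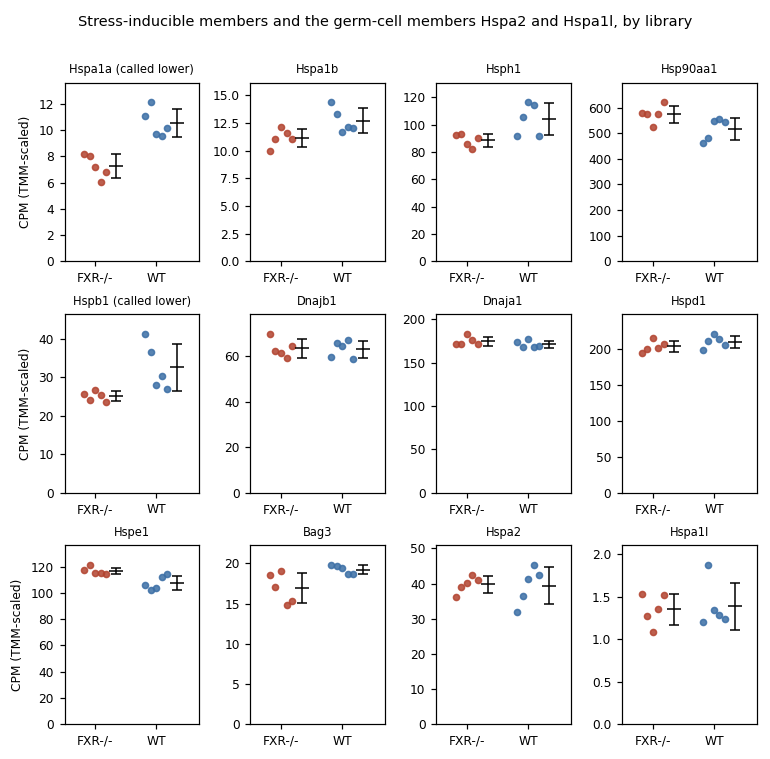
CPM (y axis, TMM-scaled, starting at 0) of the 10 stress-inducible members and the germ-cell members Hspa2 and Hspa1l in each FXR-/- library (left, red) and wild-type library (right, blue), with the mean and SD in black. The genotypes separate in Hspa1a and, narrowly, in Hspb1, and overlap in the other 10 panels, with Hspa2 at 31.8 to 45.2 CPM in wild type.

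The germ-cell HSP70 genes did not separate by genotype. Hspa2 (ENSMUSG00000059970, GRCm38 chromosome 12, 76404176 to 76406938, plus strand) had 36.2, 39.2, 40.3, 42.5 and 41.0 CPM in FXR-/- libraries 8 to 12, against 31.8, 36.5, 41.4, 45.2 and 42.4 CPM in wild-type libraries 3, 4, 5, 6 and 9. The FXR-/- values fell inside the wild-type range. Means were 39.8 ± 2.38 CPM in FXR-/- and 39.5 ± 5.31 CPM in wild type (SD, n = 5 each; log2 fold change 0.01, SE 0.0863, edgeR adjusted p = 0.936). An interval of 2 SE on either side runs from -0.16 to 0.19 on the log2 scale.

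Hspa1l (ENSMUSG00000007033, chromosome 17, 34972703 to 34979285, plus strand) was near 1 CPM in this tissue, in which spermatids are still absent. It had 43 to 59 counts in FXR-/- and 40 to 65 counts in wild-type libraries, or 1.35 ± 0.183 and 1.39 ± 0.275 CPM (SD, n = 5 each; log2 fold change -0.04, SE 0.158, edgeR adjusted p = 0.894). At this depth the interval of 2 SE, from -0.36 to 0.28, leaves room for moderate changes either way. Its exons share 71.9% of their bases with Gm10501, annotated as antisense, and the use of strand in counting is not given in the sources used here, so reads of the 2 genes may not be told apart (14 to 28 counts for Gm10501 in FXR-/-, 17 to 27 in wild type). Of the 2 germ-cell members, none passed by edgeR, DESeq2 or limma-voom, and none had an unadjusted p under 0.05 by edgeR.

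The level of Hspa2 varied with the meiotic markers of the library. Wild-type library 3, lowest in Hspa2, also had the lowest mean log2 level of the 20 meiotic prophase markers (4.26), and wild-type library 6, highest in Hspa2, had the highest wild-type marker level (5.39). Within FXR-/- testes library 8 was lowest in both (marker level 4.92). FXR-/- libraries 12 and 11 departed from this, with the highest marker levels of all 10 (5.63 and 5.49) but less Hspa2 than wild-type library 6. Across the 10 libraries the correlation was 0.893 by Pearson's r (permutation p = 0.00194) and 0.830 by Spearman's rho (permutation p = 0.00442), the only relation of this kind computed, and r was 0.930 after genotype means were removed. Without wild-type libraries 3 and 4, the farthest from the median marker level, r was 0.651 (exact permutation p = 0.0723), so the relation rests in part on those 2 libraries. Both measures share each library's scaling.

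Hspa4l, an HSP110 protein needed for sperm production in the mouse, ran the same way. It had 79.9, 112, 97.3, 112 and 124 CPM in FXR-/- libraries 8 to 12 and 85.1, 106, 122, 126 and 137 CPM in wild-type libraries 3, 4, 5, 6 and 9. FXR-/- library 8 and wild-type library 3 were lowest, as for Hspa2, and the genotypes overlapped (log2 fold change -0.13, SE 0.133, edgeR adjusted p = 0.548).

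**Figure D3:**
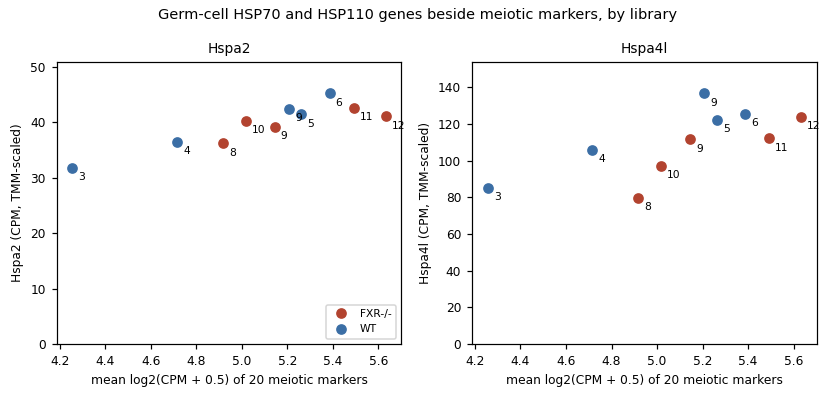
CPM of Hspa2 (left) and Hspa4l (right) on the y axis against the mean log2(CPM + 0.5) of 20 meiotic prophase markers on the x axis, 1 point per library (red FXR-/-, blue wild type, labelled with the library number). Both genes are low in wild-type library 3 (marker level 4.26). The genotypes intermingle in Hspa2, and in Hspa4l most wild-type points lie above FXR-/- points of similar marker level.

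Set against Hspa8, the constitutive HSC70, within each library, neither kind of gene separated the genotypes. The log2 ratio of Hspa2 to Hspa8 was -3.58 ± 0.276 in FXR-/- and -3.69 ± 0.246 in wild type (SD, n = 5 each; difference 0.12, exact two-sided permutation p = 0.476). That of Hspa1l was -8.45 ± 0.259 and -8.51 ± 0.299 in the same order (difference 0.06, exact permutation p = 0.706). That of the summed Hspa1a and Hspa1b counts was -4.69 ± 0.178 in FXR-/- and -4.45 ± 0.406 in wild type (difference -0.24, exact permutation p = 0.278). For Hsph1 it was -2.42 ± 0.146 and -2.29 ± 0.187 (difference -0.13, exact permutation p = 0.294). The smallest of the 4 p-values adjusted by Benjamini-Hochberg was 0.587, and the smallest p this design allows is 0.00794. Hspa8 itself varied widely, with 559, 535, 453, 420 and 422 CPM in FXR-/- and 360, 572, 609, 596 and 444 CPM in wild type, which widens each ratio. Whether the inducible genes differed from the germ-cell genes in their response was not tested directly.

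The HSP90 family held the most abundant members, and 2 of its 3 genes fell (7.71% of all tested genes fell). Per kilobase of exon, Hsp90ab1 had the highest level of all members, at 505 CPM per kilobase in FXR-/- and 564 in wild type, followed by Hsp90b1 at 222 and 262 and by Hspa5 at 156 and 173 in the same order. Hsp90ab1 (ENSMUSG00000023944, chromosome 17, 45567775 to 45573271, minus strand), the constitutive cytosolic HSP90, had 1571, 1515, 1549, 1482 and 1456 CPM in FXR-/- libraries, against 1667, 1662, 1715, 1728 and 1686 CPM in wild-type libraries. The lowest wild-type value exceeded the highest FXR-/- value. It was 1.12-fold lower (log2 fold change -0.16, SE 0.0356, edgeR adjusted p = 0.0136), and its paralogue Hsp90aa1 did not pass, as given above.

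Hsp90b1 (ENSMUSG00000020048, chromosome 10, 86690209 to 86705509, minus strand) encodes GRP94, the HSP90 of the endoplasmic reticulum (ER), which matures integrins, Toll-like receptors and insulin-like growth factors. It had 823, 924, 955, 898 and 876 CPM in FXR-/- libraries and 929, 1043, 1181, 1047 and 1080 CPM in wild type. Wild-type library 3 lay among the FXR-/- values, and the other 4 wild-type libraries above them. The change was 1.18-fold downwards (log2 fold change -0.24, SE 0.0617, edgeR adjusted p = 0.0259), lost without FXR-/- library 11 or 12 or wild-type library 4, 5 or 9 (edgeR adjusted p 0.0524 to 0.0616). The gene lies on chromosome 10, 2.75 Mb from Nr1h4, and on this mixed background sequence linked to the mutation and the loss of the receptor cannot be told apart for it. The pseudogene 1810014B01Rik on the opposite strand covers 10.3% of the exon bases of Hsp90b1, so its reads are uncertain in part.

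Other ER chaperones among the members did not pass. Of 10 ER members, Hsp90b1 fell and 9 were not called (2 called by DESeq2, the other being Dnajb14), with a median log2 fold change of -0.09. The share called was 10.0%, against 13.9% of all tested genes, and 8 of the 10 had a fitted change below 0. Hspa5, the ER HSP70 BiP, had 624, 633, 702, 662 and 678 CPM in FXR-/- and 580, 710, 841, 808 and 729 CPM in wild type (log2 fold change -0.15, SE 0.0846, edgeR adjusted p = 0.249). Wild-type library 3 was the lowest of all 10, and without it Hspa5 was lower in FXR-/- testes (log2 fold change -0.23, edgeR adjusted p = 0.0285). Dnajb11, which delivers substrates to BiP, averaged 104 ± 5.87 CPM in FXR-/- and 111 ± 13.9 CPM in wild type, and Dnajc10, an ER disulfide reductase, 147 ± 9.97 and 142 ± 5.26 CPM in the same order (SD, n = 5 each).

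Among 19 further ER folding and stress genes outside the name rule, 6 fell and 1 rose, or 36.8% called against 13.9% of all tested genes (7.71% lower and 6.17% higher). The list was chosen with earlier results of these data known. Calr, the lectin chaperone calreticulin, fell 1.23-fold to 556 ± 26.3 CPM in FXR-/-, against 683 ± 75.4 CPM in wild type (SD, n = 5 each; edgeR adjusted p = 0.0174). Pdia6, a protein disulfide isomerase, fell 1.22-fold (226 ± 9.31 against 275 ± 24.8 CPM in wild type; SD, n = 5 each; edgeR adjusted p = 0.00996) and had no overlap between genotypes. Manf (1.19-fold), Sil1 (1.26-fold), Pdia3 (1.10-fold) and Atf6 (1.12-fold) also fell. They encode a secreted ER stress factor, the exchange factor of BiP, a glycoprotein disulfide isomerase and an ER stress sensor. Herpud1, part of ER-associated degradation, rose to 31.9 ± 1.65 CPM in FXR-/-, against 26.4 ± 2.51 CPM in wild type (SD, n = 5 each; edgeR adjusted p = 0.0222). Of the 19 genes, 15 had a fitted change below 0 and 4 above (median -0.11), so most but not all leaned downwards. Of all 18559 tested genes 8675 were below 0. Of these 7 calls, that of Pdia6 held with each library left out, those of Manf, Calr and Herpud1 in 9 of 10 such fits, Atf6 in 4 and Sil1 and Pdia3 in 2 (edgeR adjusted p up to 0.114). The Sertoli markers given above fell in the same libraries, and their part in these changes was not tested.

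**Figure D4:**
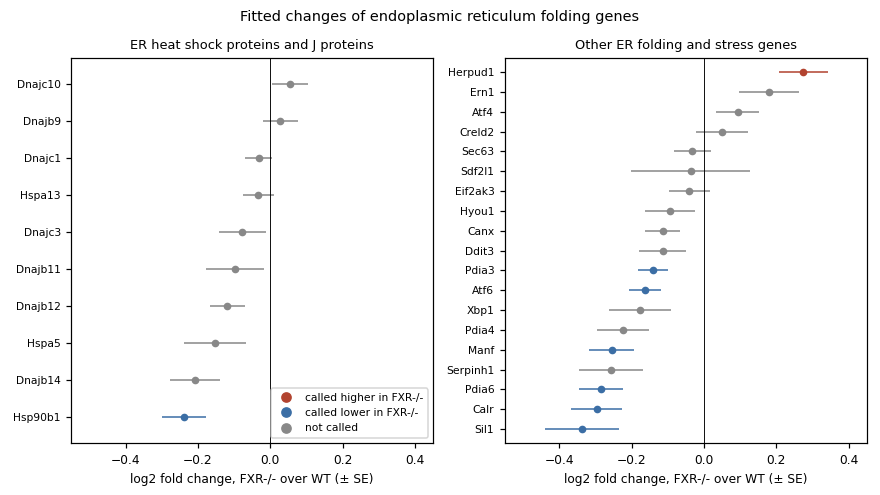
Fitted log2 fold change (x axis, FXR-/- over wild type, bars of 1 SE) of the 10 ER members (left) and of 19 other ER folding and stress genes (right). Hsp90b1 on the left and Sil1, Calr, Pdia6, Manf, Atf6 and Pdia3 on the right are called lower, and Herpud1 is called higher.

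Among subunits of the cytosolic chaperonin, a pair rose. Of 7 CCT subunits among the members, Cct4 and Cct5 rose and 5 did not pass (28.6% called, against 13.9% of all tested genes). All 7 had a fitted change above 0 (median 0.07, range 0.01 to 0.16), as did 53.3% of all tested genes. The testis subunit gene Cct6b, listed apart, had -0.10. Cct5 (ENSMUSG00000022234, chromosome 15, 31590800 to 31601804, minus strand) had 388, 368, 344, 362 and 364 CPM in FXR-/- and 322, 321, 332, 330 and 332 CPM in wild type (log2 fold change 0.16, SE 0.0371, edgeR adjusted p = 0.0168). Cct4 (ENSMUSG00000007739, chromosome 11, 22990519 to 23003780, plus strand) had 260, 259, 253, 268 and 270 CPM in FXR-/- and 223, 227, 253, 236 and 231 CPM in wild type (log2 fold change 0.16, SE 0.0406, edgeR adjusted p = 0.0222). In both genes all FXR-/- values lay above all wild-type values, narrowly in Cct4, whose call was lost without FXR-/- library 11 or 12 or wild-type library 4 or 9 (edgeR adjusted p 0.0509 to 0.0613).

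Cct8 had 365 ± 13.4 CPM in FXR-/- and 350.0 ± 15.7 CPM in wild type (SD, n = 5 each; edgeR adjusted p = 0.371). The subunits form 1 ring with Tcp1, which the name rule leaves out, and prefoldin hands actin and tubulin to it. Of 7 genes of Tcp1 and prefoldin, Pfdn1 fell 1.12-fold (48.7 ± 2.04 CPM in FXR-/- and 54.8 ± 2.39 CPM in wild type; SD, n = 5 each; edgeR adjusted p = 0.0296, kept in 5 of 10 fits with a library left out) and 6 did not pass. The share called was 14.3%, against 13.9% of all tested genes. Tcp1 itself had 311 ± 9.70 CPM in FXR-/- and 291 ± 6.75 CPM in wild type (SD, n = 5 each; edgeR adjusted p = 0.0846).

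Mitochondrial chaperones were close to wild type. Of 9 members in this group, Dnajc28 fell and 8 did not pass (11.1% called, against 13.9% of all tested genes). Hspa9, the mitochondrial HSP70 mortalin, averaged 361 ± 14.4 CPM in FXR-/- and 351 ± 9.32 CPM in wild type, and the chaperonin Hspd1 (HSP60) 204 ± 7.94 and 211 ± 8.31 CPM in the same order (SD, n = 5 each). Its partner Hspe1 (HSP10) had 117 ± 2.58 CPM in FXR-/- and 108 ± 5.31 CPM in wild type (SD, n = 5 each; edgeR adjusted p = 0.0777), which DESeq2 called (adjusted p = 0.0332). Hspd1 and Hspe1 are divergent neighbours on chromosome 1 whose exons overlap by 112 bases. Dnajc28 (ENSMUSG00000039763, chromosome 16, 91614254 to 91619026, minus strand), a J domain protein of the mitochondrial group, had 18.5, 20.9, 19.7, 19.3 and 18.4 CPM in FXR-/- and 26.0, 23.6, 22.6, 21.1 and 22.3 CPM in wild type. The ranges were adjacent without overlap (log2 fold change -0.25, SE 0.0656, edgeR adjusted p = 0.0253), and the call was lost without FXR-/- library 11 or 12 or wild-type library 4 (edgeR adjusted p 0.0593 to 0.0624).

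Small heat shock proteins split between 1 fall and 1 rise among 7 tested, or 28.6% called against 13.9% of all tested genes. Beside Hspb1, the rise was that of Hspb2 (ENSMUSG00000038086, chromosome 9, 50751078 to 50752354, minus strand), a muscle member of the family, at a low level. It had 2.36, 2.28, 1.90, 1.90 and 2.11 CPM in FXR-/- (73 to 84 counts) and 1.66, 1.73, 1.54, 1.44 and 1.66 CPM in wild type (48 to 60 counts). All FXR-/- values were above all wild-type values (log2 fold change 0.39, SE 0.115, edgeR adjusted p = 0.0407), but the call was lost with DESeq2 (adjusted p = 0.0589) and without any 1 library except FXR-/- library 10 (edgeR adjusted p 0.0552 to 0.0864). Hspb2 shares 30.2% of its exon bases with Cryab on the opposite strand, so its reads are uncertain. The 6 smooth muscle markers had mean log2 levels of 6.82 to 7.16 in FXR-/- and 6.77 to 7.05 in wild type. Those of 7 skeletal muscle markers were -0.03 to 0.55 in FXR-/- and 0.11 to 0.55 in wild type. Their part in the rise of Hspb2 was not tested. Hspb11, an intraflagellar transport protein, had 20.2 ± 1.53 CPM in FXR-/- and 19.6 ± 1.87 CPM in wild type (SD, n = 5 each). Hspb6, Hspb7, Hspb8 and Hspb9 did not pass either, and Hspb3 was too low to test.

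J proteins formed the largest family, with 43 tested members, of which 1 rose and 3 fell. The share called was 0% of DNAJA, 8.33% of DNAJB and 11.1% of DNAJC genes, against 13.9% of all tested genes. Dnajb2 (ENSMUSG00000026203, chromosome 1, 75236406 to 75245692, plus strand), a J protein that sorts HSP70 clients towards the proteasome, had 31.8, 32.9, 32.5, 29.1 and 30.4 CPM in FXR-/- and 37.9, 37.2, 36.3, 35.3 and 36.4 CPM in wild type. The highest FXR-/- value was below the lowest wild-type value, and the fall was 1.17-fold (log2 fold change -0.22, SE 0.0468, edgeR adjusted p = 0.0096). Dnajc14 (ENSMUSG00000025354, chromosome 10, 128804062 to 128819446, plus strand), which helps receptors leave the ER, fell 1.12-fold to 71.8 ± 4.25 CPM in FXR-/-, against 80.2 ± 2.30 CPM in wild type (SD, n = 5 each; edgeR adjusted p = 0.0375). That call was lost without any 1 library except FXR-/- library 10 (edgeR adjusted p 0.0504 to 0.0957), and FXR-/- library 10 overlapped the wild type. Ormdl2 on the opposite strand covers 17.0% of the exon bases of Dnajc14, so its reads are uncertain in part.

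The J protein that rose was Dnajc2 (ENSMUSG00000029014, chromosome 5, 21757267 to 21785251, minus strand), the ribosome-associated factor MPP11 that works on nascent chains. It had 141, 139, 133, 149 and 153 CPM in FXR-/- and 109, 115, 129, 132 and 132 CPM in wild type. The groups were adjacent without overlap, with wild-type library 3 lowest (log2 fold change 0.22, SE 0.0622, edgeR adjusted p = 0.0387). The call was lost without FXR-/- library 9, 11 or 12 or wild-type library 3, 4 or 5 (edgeR adjusted p 0.0541 to 0.0956). None of the 4 DNAJA genes passed by edgeR, DESeq2 or limma-voom, with 0 at an unadjusted p under 0.05 by edgeR. Their most abundant gene, Dnaja2, averaged 300.5 ± 8.83 CPM in FXR-/- and 286 ± 12.2 CPM in wild type (SD, n = 5 each).

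Of the 6 BAG genes, 1 fell (16.7%, against 13.9% of all tested genes called). Bag2 (ENSMUSG00000042215, chromosome 1, 33745484 to 33757795, minus strand), an inhibitor of the ubiquitin ligase CHIP, had 24.8, 27.6, 27.4, 28.7 and 27.5 CPM in FXR-/- and 30.7, 29.5, 30.7, 30.8 and 32.5 CPM in wild type. The genotypes did not overlap (log2 fold change -0.18, SE 0.0506, edgeR adjusted p = 0.0345), but the call was lost without FXR-/- library 8, 9 or 12 or wild-type library 5, 6 or 9 (edgeR adjusted p 0.0504 to 0.0773). The other 5 did not pass, and 5 of the 6 had a fitted change below 0 (median -0.10), as had 8675 of all 18559 tested genes. By edgeR 3 of the 6 had an unadjusted p under 0.05, as had 29 of all 85 tested members. The share over all tested genes was not counted, so these 3 are not read as a result. Bag6, a guide of tail-anchored proteins whose loss blocks spermatogenesis in the mouse, had 405 ± 20.9 CPM in FXR-/- and 438 ± 10.7 CPM in wild type (SD, n = 5 each; edgeR adjusted p = 0.0901), called by DESeq2 (adjusted p = 0.0397) and without FXR-/- library 8 (edgeR adjusted p = 0.0489). Bag1 had 131 ± 4.32 and 132 ± 3.68 CPM in FXR-/- and wild type (SD, n = 5 each).

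Members named for testis or sperm expression were mostly near the detection limit at this age. Of 10 such genes, 7 were tested and none passed by edgeR, DESeq2 or limma-voom (1 at an unadjusted p under 0.05 by edgeR, Dnajc5g). Dnajc5g had 2.33 ± 0.216 CPM in FXR-/- and 1.88 ± 0.166 CPM in wild type without overlap (SD, n = 5 each; edgeR adjusted p = 0.0881). Dnajb3 had 5.25 ± 0.693 CPM in FXR-/- and 4.35 ± 0.655 CPM in wild type (SD, n = 5 each; edgeR adjusted p = 0.179). Dnajb7, Dnajb13 and Hspb9 were under 1 CPM in the mean of both genotypes and Cct6b just above it. Cct8l1, Dnajb8 and Dnajc5b, with Hspb3, were the 4 members too low to test. Of 12 markers of pachytene cells and spermatids 8 were tested and 3 rose (6.17% of all tested genes rose), and the 12 summed to 23.5 to 26.4 CPM in FXR-/- and 13.4 to 19.4 CPM in wild type. Their part in these values was not tested.

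The transcription factors and co-chaperones that act with these proteins were tested gene by gene, and their calls were counted in lists of their own. Hsf1, the main heat shock factor, averaged 65.3 ± 4.20 CPM in FXR-/- and 66.9 ± 1.32 CPM in wild type, and Hsf2, needed for normal spermatogenesis in the mouse, 68.6 ± 2.08 and 64.7 ± 3.62 CPM in the same order (SD, n = 5 each; edgeR adjusted p = 0.661 and 0.232). Of 5 heat shock factor genes only Hsf3 passed, at 1.17 ± 0.212 CPM in FXR-/- and 0.685 ± 0.173 CPM in wild type (SD, n = 5 each; log2 fold change 0.78, edgeR adjusted p = 0.0234, kept in 6 of 10 fits with a library left out). Of 20 other co-chaperones of HSP90 and HSP70, 1 fell and 19 did not pass, with 8 at an unadjusted p under 0.05 by edgeR and 4 called by DESeq2. The fall was that of Grpel1, the exchange factor of the mitochondrial HSP70, at 50.6 ± 3.54 CPM in FXR-/- and 57.7 ± 2.21 CPM in wild type (SD, n = 5 each; edgeR adjusted p = 0.0320, kept in 4 of 10 fits). In all, 10 of 52 tested pathway genes outside the name rule were called (19.2%, against 13.9% of all tested genes), 8 of them lower. Of the 52, 23 had an unadjusted p under 0.05 by edgeR. The share over all tested genes was not counted, so neither these 23 nor the 8 above are read as a result. DESeq2 called 16 of the 52 and 18.8% of all genes it tested.

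**Figure D5:**
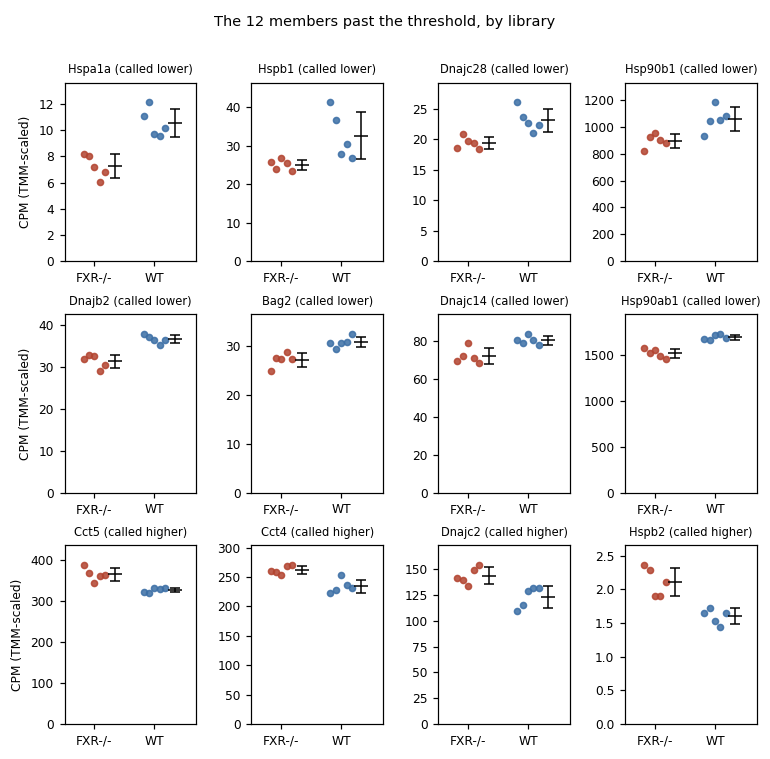
CPM (y axis, TMM-scaled, starting at 0) of the 12 called members in each FXR-/- library (left, red) and wild-type library (right, blue), ordered by log2 fold change, with the mean and SD in black. Hspa1a shows the widest gap in relation to its level, and in Hsp90b1 and Dnajc14 1 library overlaps the other genotype.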

How the data were processed

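Whole testes at postnatal day 10 from 5 FXR-/- and 5 wild-type mice were profiled. A TruSeq kit was used for the libraries, per the labels' protocols, and the submitters' processing notes name FastQC 0.10.1, CASAVA, Bowtie, TopHat2 2.0.10, Bowtie2 2.1.0 and mm10. For the read counter, the annotation and any use of strand, the setting is not given in the sources used here. Raw gene counts as deposited, named so per the file headers, entered every test. Another 20 columns, of normalized values whose decimal marks had been lost, were not used.

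Genes were filtered with filterByExpr and tested with edgeR 4.0.16 (TMM factors, quasi-likelihood F-test, two-sided, genotype as the only term, Benjamini-Hochberg over 18559 genes) in R 4.3.3. CPM use TMM-scaled library sizes, and marker levels are means of log2(CPM + 0.5). The SE of a log2 fold change was derived from the test, as its size divided by the square root of the quasi-likelihood F. The ratios used counts with 0.5 added. Gene positions and exon lengths are from GENCODE M21 (GRCm38, the same build as mm10), which held all 89 members. Alternatives were DESeq2 1.42.0, limma-voom (limma 3.58.1), other scalings and filters, and libraries left out. The edgeR, DESeq2 and limma steps were run on simulated counts that gave every gene the same relative spread, unlike these data. That run checks the steps only and does not show how well changes as small as those here are found. Members and lists were chosen with earlier results of these data known. Named members were all called ones, the inducible and germ-cell lists, and the 2 most abundant of each other list, and genes named beyond these were chosen after their values were seen. Replicate spread is that between mice.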

Additional observations from a re-analysis of the deposited data

Results flagged for a closer look

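In 62 groups of 5 libraries (31 named members in each genotype), 2 held a library far from the others by Dixon's ratio above 0.71, fewer than the 1 in 20 that chance gives. Cct8 in FXR-/- library 8 had 388.1 CPM, against 354.9 to 362.8 CPM in the other FXR-/- libraries. Hspa1l in wild-type library 4 had 1.87 CPM, against 1.20 to 1.35 CPM in the other wild-type libraries. Neither gene was called in any fit with 1 library left out.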

How the results depend on the processing

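The members called higher numbered 4 and those called lower 8. With library totals alone they were 7 and 5. Of all called genes 44.5% were higher in the main fit and 61.5% with library totals alone, so the shift was not particular to the members. With 1 library left out, the members called higher ranged from 1 to 4 and those called lower from 3 to 10, among 7.64% to 15.3% of all tested genes. The fewest calls came without FXR-/- library 12 (4 in all, against 8.76% of all tested genes called there), and without FXR-/- library 11 and wild-type library 4 (5 each). All members called without FXR-/- library 11 or 12 or wild-type library 4 were also called with all libraries. DESeq2 called 16 members, 11 of them shared, among 18.8% of all genes, and the call lost was Hspb2. Without FXR-/- libraries 9 and 10 it was 10, of which 9 were shared. The log2 ratio of Hspa1l to Hspa8 differed by 0.06 between genotypes and ranged from -0.02 to 0.14 with 1 library left out, turning below 0 without FXR-/- library 12 (-0.0207) and wild-type libraries 5 (-0.00781) and 6 (-0.0166). The other 3 ratios kept their direction and stayed past no threshold under their alternatives, and the ratio of Hspa1a and Hspa1b to Hspa8 moved to -0.08 without wild-type library 3. The correlation of Hspa2 with meiotic markers ran from 0.763 to 0.946 with 1 library left out. No paired analysis was possible because the genotypes share only the library number 9. Causes of these shifts were not tested. Genes near 1 CPM, Hspa1l among them, are limited by depth.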
